A study of Mus musculus with 3 samples.

Results

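Hemoglobin transcripts were examined in bulk RNA-Seq counts of the mouse maxillary process at E10.5, through the 8 alpha and beta globin genes of primitive and definitive red cells. The members were the rows, among 55401 gene identifiers in the files, whose GENCODE M21 gene name was *Hba-x*, *Hba-a1* or *Hba-a2* of the alpha cluster, or *Hbb-y*, *Hbb-bh1*, *Hbb-bh2*, *Hbb-bt* or *Hbb-bs* of the beta cluster. All 8 were found, and 7 averaged 10 or more counts over the libraries. The samples were 3 independent RNA preparations from *wnt1cre; Rosa26Dlx2/-* embryos (OE replicates 1, 2 and 3, numbered here for reference). In these embryos Cre under *Wnt1* control opens a *Rosa26* allele, *CAG-LSL-Dlx2-3xFlag*, so that *Dlx2* is overexpressed in neural crest cells. All 3 libraries carry both alleles. How many embryos went into each RNA preparation is not stated in the sources used here. Wild-type tissue was not analysed here: the values describe OE tissue, and no difference between genotypes was tested.

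Globin proteins bind heme, and hemoglobin joins 2 alpha-type with 2 beta-type chains. In the mouse embryo the first red cells come from the yolk sac, circulate with a nucleus, and use *Hba-x* (zeta globin) with *Hbb-bh1* and *Hbb-y* (the embryonic beta-type globins) as well as adult alpha globin. Definitive red cells, which come later from the fetal liver and then the bone marrow, use *Hba-a1* and *Hba-a2* with *Hbb-bt* and *Hbb-bs*. Red cells are not neural crest derivatives, and they reach the maxillary process in its blood vessels. In a bulk sample, fewer red cells and less globin RNA per red cell cannot be told apart.

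Globin reads depend on how far each gene's sequence can be told from its copies. *Hba-x*, *Hba-a1* and *Hba-a2* lie on the plus strand of chromosome 11 (GRCm38/mm10), at 32276400 to 32278116, 32283511 to 32284465 and 32296489 to 32297298. The beta genes lie on the minus strand of chromosome 7, with *Hbb-y* at 103851749 to 103853216, *Hbb-bh1* at 103841637 to 103843164, *Hbb-bh2* at 103839124 to 103840520, *Hbb-bs* at 103826534 to 103828096 and *Hbb-bt* at 103812524 to 103813996. Within the 426 coding bases before the stop codon, *Hba-a1* and *Hba-a2* differed at 1 base in GENCODE M21, and within 441 coding bases *Hbb-bt* and *Hbb-bs* also differed at 1 base. Both differences fall on the third base of a codon. The stretches that hold these bases are shown because they are the coding sequence by which a read can be given to 1 copy, with the differing base in capitals. They cover coding bases 351 to 411 for alpha (chr11:32284313-32284373 and chr11:32297130-32297190) and 387 to 441 for beta (chr7:103812659-103812713 and chr7:103826668-103826722), counted from the A of the start codon.
*Hba-a1*: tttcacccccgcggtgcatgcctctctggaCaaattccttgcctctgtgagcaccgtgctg
*Hba-a2*: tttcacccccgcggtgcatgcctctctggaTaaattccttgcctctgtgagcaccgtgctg
*Hbb-bt*: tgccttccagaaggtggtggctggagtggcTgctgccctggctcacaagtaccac
*Hbb-bs*: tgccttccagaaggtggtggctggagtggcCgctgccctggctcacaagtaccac
The differences are C381T from *Hba-a1* to *Hba-a2* and T417C from *Hbb-bt* to *Hbb-bs*. By contrast *Hba-x* differed from *Hba-a1* at 163 of 426 coding bases, and *Hbb-y* from *Hbb-bh1* at 104 of 441. Of all 150-base windows (the read length) along the main transcript, 100% were found in no other globin gene for *Hba-x*, *Hbb-y*, *Hbb-bh1* and *Hbb-bh2*. This share was 22.4% for *Hba-a1*, 34.3% for *Hba-a2*, 49.3% for *Hbb-bt* and 41.3% for *Hbb-bs*. A window stands for 1 read alone, whereas the reads came in pairs. The part of each adult gene that can be counted may thus be larger than these shares, here and wherever levels are given per window. The authors' counting set aside reads that were not uniquely placed, so the adult genes are counted over a smaller part of their length than the embryonic genes, and single values of *Hba-a1*, *Hba-a2*, *Hbb-bt* and *Hbb-bs* are uncertain. Their share of the reads was 3.08% in replicate 1, 4.77% in replicate 2 and 5.19% in replicate 3. How many of them came from globin RNA was not tested.

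The upstream sequences are shown because they hold letters that red cell regulators are known to read. KLF1 binds the CACCC box and GATA1 the GATA motif, while the CCAAT box and the TATA box (searched as TATAA) are common promoter elements. Each line is the 250 bases upstream of the RefSeq start (GRCm38.p6), 5′ to 3′ on the gene's strand, with matches to these motifs on either strand in capitals. The regions are chr11:32276350-32276599 (+) for *Hba-x*, chr11:32283422-32283671 (+) for *Hba-a1*, chr7:103853208-103853457 (-) for *Hbb-y*, chr7:103827929-103828178 (-) for *Hbb-bs* and chr7:103813924-103814173 (-) for *Hbb-bt*.
*Hba-x*: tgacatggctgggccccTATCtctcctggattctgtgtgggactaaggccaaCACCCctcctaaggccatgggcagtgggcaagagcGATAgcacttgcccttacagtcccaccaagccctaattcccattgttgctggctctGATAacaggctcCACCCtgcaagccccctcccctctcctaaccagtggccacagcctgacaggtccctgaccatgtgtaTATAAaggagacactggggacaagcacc
*Hba-a1*: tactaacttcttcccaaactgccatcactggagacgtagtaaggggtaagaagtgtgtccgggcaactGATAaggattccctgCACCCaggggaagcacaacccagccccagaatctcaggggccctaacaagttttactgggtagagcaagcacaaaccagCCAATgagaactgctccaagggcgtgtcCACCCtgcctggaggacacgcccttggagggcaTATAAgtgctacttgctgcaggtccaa
*Hbb-y*: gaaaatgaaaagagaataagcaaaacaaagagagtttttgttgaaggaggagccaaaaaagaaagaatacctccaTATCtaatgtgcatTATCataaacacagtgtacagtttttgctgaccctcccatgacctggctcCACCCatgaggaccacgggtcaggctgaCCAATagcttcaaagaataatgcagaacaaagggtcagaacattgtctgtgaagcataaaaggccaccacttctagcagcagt
*Hbb-bs*: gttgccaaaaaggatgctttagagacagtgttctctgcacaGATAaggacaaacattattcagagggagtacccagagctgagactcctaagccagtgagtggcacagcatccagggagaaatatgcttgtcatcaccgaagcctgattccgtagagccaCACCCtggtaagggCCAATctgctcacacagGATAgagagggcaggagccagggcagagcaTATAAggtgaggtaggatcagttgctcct
*Hbb-bt*: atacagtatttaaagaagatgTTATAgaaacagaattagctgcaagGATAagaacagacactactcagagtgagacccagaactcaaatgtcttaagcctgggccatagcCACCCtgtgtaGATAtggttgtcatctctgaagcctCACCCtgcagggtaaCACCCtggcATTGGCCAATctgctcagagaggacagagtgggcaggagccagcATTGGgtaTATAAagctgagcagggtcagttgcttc
A RefSeq upstream window was matched for 7 of the 8 members. CACCC stood in 6 of these 7 windows, GATA in 7, CCAAT in 5 and TATAA in 5, against 52.0%, 53.6%, 33.8% and 22.8% of 32851 upstream windows of the same length. All 4 stood in 4 of the 7 windows and in 2.15% of all windows. *Hba-a2*, not printed, matched *Hba-a1* at 247 of 247 bases after an offset of 3 bases. No matches overlapped within a window, and a match is a string of letters and not a bound site. The window of *Hbb-bh2*, the least counted member, held the GATA motif 4 times and none of the other motifs.

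Depth was similar across libraries, with 35351031 to 40057435 counts on genes, and counts are given per 1000000 counts on genes after TMM scaling (CPM). A gene at 0 counts could be present at up to 0.0777 to 0.0843 CPM, the level of 3 counts. These limits and all intervals below cover counting error only. The tissue had facial mesenchyme markers in every library, with a summed level over 8 genes (*Prrx1* and *Twist1* among them) of 1564 to 1719 CPM. The libraries stood apart by gene length and by neuronal RNA. In replicate 3, genes with short exons were high, and the median log2 ratio to the other libraries was 0.81 over the 1683 other genes of up to 1000 exonic bp. Replicate 1 held more neuronal RNA, with 273 CPM summed over 9 neuron markers against 24.3 and 35.9 in replicates 2 and 3. No library was a copy of another, since 48.8% to 77.7% of genes tested differed beyond counting noise whichever 1 was left out.

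Globin made up a small share of the uniquely placed counts on genes, and its embryonic genes held most of the globin counts. The 8 genes together had 82736 counts in replicate 1, 141153 in replicate 2 and 186721 in replicate 3, or 0.226%, 0.399% and 0.466% of all counts on genes. Their summed level was 2144, 3966 and 4957 CPM (3689 ± 1427, SD, n = 3). Replicate 1 was lowest and replicate 3 highest, 2.31-fold apart. *Hbb-y*, the embryonic epsilon-type beta chain, was the most abundant member and ranked 42 of all genes by mean CPM. *Hba-x* ranked 87, *Hbb-bh1* ranked 234 and *Hba-a1* ranked 350, whereas *Hbb-bs*, *Hbb-bt* and *Hba-a2* ranked 7053, 8432 and 9514.

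**Figure D1:**
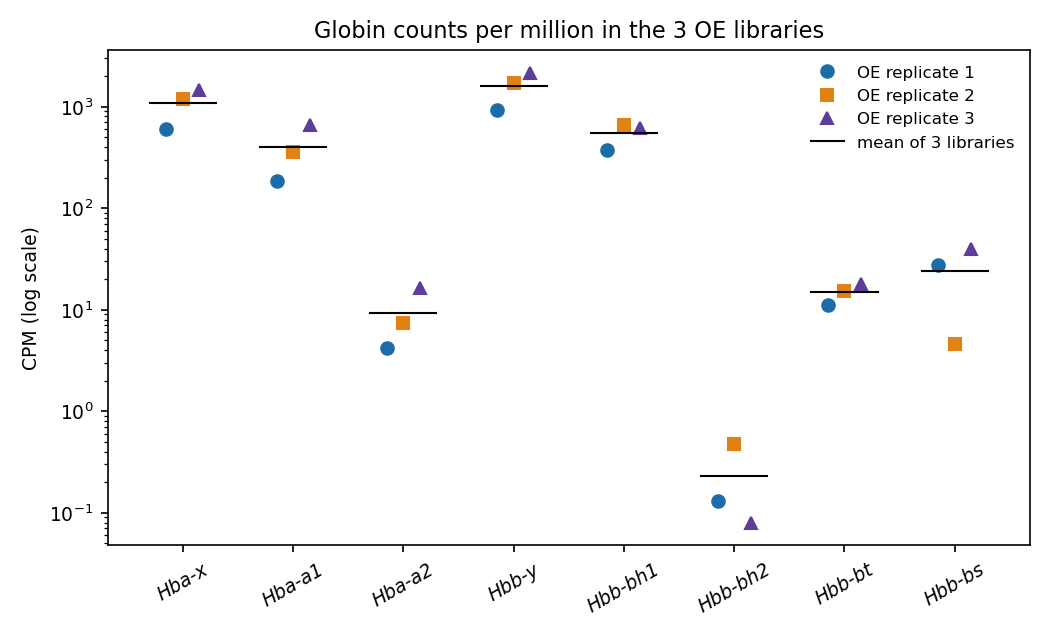
CPM on a log axis of each of the 8 globin genes in OE replicates 1 (circles), 2 (squares) and 3 (triangles), with the mean of the 3 libraries as a line. *Hbb-y* runs from 935 to 2156 CPM, and *Hbb-bs* is the member in which replicate 2, at 4.61 CPM, lies far below the other libraries.

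Among the embryonic genes, *Hbb-y* was at 935, 1728 and 2156 CPM in replicates 1, 2 and 3. *Hba-x*, the embryonic alpha-type chain, was at 602, 1190 and 1455 CPM. *Hbb-bh1*, the beta chain that yolk sac cells use earliest, was at 378, 663 and 618 CPM. Replicate 1 was thus lowest for all 3 embryonic genes, and replicate 3 was highest for *Hbb-y* and *Hba-x* but not for *Hbb-bh1*. The highest library exceeded the lowest 2.31-fold for *Hbb-y*, 2.42-fold for *Hba-x* and 1.76-fold for *Hbb-bh1*. Without replicate 1 these values were 1.25, 1.22 and 1.07, so replicates 2 and 3 were closer to each other than either was to replicate 1.

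Among the adult genes, *Hba-a1* was at 186, 357 and 654 CPM in replicates 1, 2 and 3, and *Hba-a2* at 4.20, 7.33 and 16.3 CPM. Both followed the order of *Hba-x* and *Hbb-y* with a larger spread, 3.53-fold and 3.88-fold between replicates 3 and 1. *Hbb-bt*, an adult beta chain, was at 11.2, 15.3 and 17.8 CPM. It had the smallest ratio among the 7 members with enough counts, at 1.60-fold. *Hbb-bs*, its near copy, was at 27.6, 4.61 and 39.6 CPM. This gene did not follow the others, since replicate 2 was 6.00-fold below replicate 1 and 8.59-fold below replicate 3. The study's methods name the dams as C57BL/6 and the labels name them by the transgenic genotype with no strain. The beta globin alleles that each sample carried are not given in the sources used here, and their part in the counts of *Hbb-bs* and its near copy *Hbb-bt* was not tested. *Hbb-bh2*, a minor member of the beta cluster, had 5, 17 and 3 counts (0.130, 0.478 and 0.0796 CPM), which in replicate 3 is no more than the limit of 3 counts.

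Levels between genes were compared per kilobase of exon (CPM per kb). *Hbb-y* was highest at 2537 ± 978 CPM per kb (SD, n = 3), followed by *Hba-x* (1154 ± 465), *Hbb-bh1* (902 ± 251) and *Hba-a1* (491 ± 292). *Hbb-bs* (31.2 ± 23.1), *Hbb-bt* (21.01 ± 4.79), *Hba-a2* (13.9 ± 9.39) and *Hbb-bh2* (0.410 ± 0.389) came after a gap of 15.8-fold between *Hba-a1* and *Hbb-bs*. The first 4 genes stood in this order in each of the 3 libraries. *Hbb-bs* was above *Hbb-bt* in 2 of 3 libraries and was below both *Hbb-bt* and *Hba-a2* in replicate 2. This order holds per exonic kb. Per 150-base window found in no other globin gene, a scale chosen after the values were seen, *Hba-a1* was second at 3.24 ± 1.93 CPM per window (SD, n = 3), near *Hbb-y* (3.32 ± 1.28) and above *Hba-x* (1.66 ± 0.669) and *Hbb-bh1* (1.19 ± 0.331). On that scale *Hba-a1* ranked 1 in replicate 3, at 5.32 against 4.45 for *Hbb-y*. Per exonic kb, the ranges of neighbours over the libraries overlapped except between *Hba-a1* and *Hbb-bs* and between *Hba-a2* and *Hbb-bh2*. *Hba-x* exceeded *Hbb-bh1* by 252 ± 265 CPM per kb (SD of the differences, n = 3), a difference smaller than its own spread. *Hbb-y* exceeded *Hba-x* by 1384 ± 514.

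Shares of counts within a library do not depend on scaling. *Hba-x* held 76.0% of all alpha counts in replicate 1 (Wilson 95% interval 75.6 to 76.5), 76.5% in replicate 2 (76.2 to 76.9) and 68.5% in replicate 3 (68.1 to 68.8). Replicate 3 was lower than both others beyond counting error, and the mean was 73.7% ± 4.53 (SD, n = 3). The embryonic beta genes, *Hbb-y* and *Hbb-bh1*, held 97.1% of beta counts in replicate 1 (97.0 to 97.3), 99.2% in replicate 2 (99.1 to 99.2) and 98.0% in replicate 3 (97.9 to 98.1). Adult-type counts were therefore a larger part of alpha than of beta globin in each library. Both adult pairs are counted over part of their length, and with each gene taken per window found in no other globin gene *Hba-x* held 37.5%, 38.2% and 29.1% of alpha, and the embryonic beta genes 93.8%, 98.4% and 95.6% of beta. Which alpha type was the larger could thus not be fixed from these counts, whereas embryonic beta exceeded adult beta on both scales. Within the embryonic beta pair, *Hbb-bh1* held 28.8% in replicate 1 (28.4 to 29.2), 27.7% in replicate 2 (27.4 to 28.1) and 22.3% in replicate 3 (22.0 to 22.5). Per window this share was 29.6%, 28.6% and 23.0%.

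**Figure D2:**
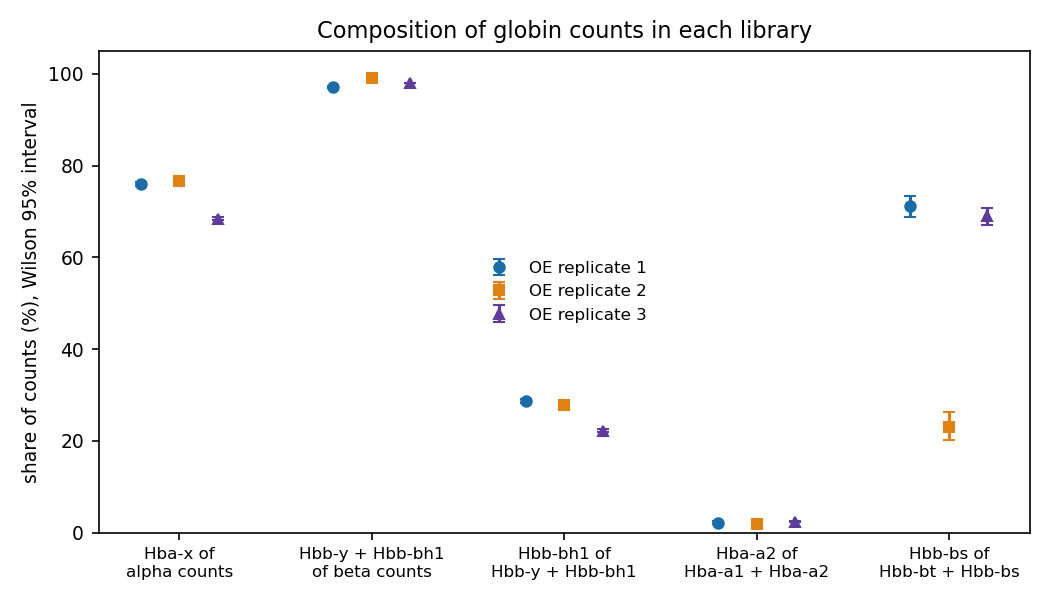
Share of counts in percent for 5 pairs of gene groups in OE replicates 1, 2 and 3, with Wilson 95% intervals as bars. The share of *Hbb-bs* among the 2 adult beta genes is 23.1% in replicate 2 against 71.2% and 68.9% in the others, while *Hba-a2* stays between 2.01% and 2.43% of the adult alpha pair.

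The adult pairs behaved differently from each other. *Hba-a2* held 2.21% of *Hba-a1* and *Hba-a2* counts in replicate 1 (1.90 to 2.57), 2.01% in replicate 2 (1.78 to 2.27) and 2.43% in replicate 3 (2.24 to 2.62), so the split was steady across libraries. *Hbb-bs* held 71.2% of *Hbb-bt* and *Hbb-bs* counts in replicate 1 (68.9 to 73.5), 23.1% in replicate 2 (20.2 to 26.4) and 68.9% in replicate 3 (66.9 to 70.8). Replicates 1 and 3 overlapped and replicate 2 lay far below both. Of the 17115 genes that averaged 10 or more counts, 57 (0.333%) were, like *Hbb-bs*, more than 4-fold lower in replicate 2 than in each other library. Among genes averaging 100 or more counts, 0.607% had a larger ratio between the highest and the lowest library than *Hbb-bs*. Summed, the adult beta pair was at 38.8, 19.9 and 57.4 CPM, and replicate 2, which was the lowest library for no member but *Hbb-bs*, was lowest here.

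Summed alpha over summed beta globin, per exonic kb, was 0.409, 0.448 and 0.530 in replicates 1, 2 and 3 (0.462 ± 0.0620, SD, n = 3). Alpha was below beta in every library on this scale. Per 150-base window found in no other globin gene, the ratio was 0.841, 0.941 and 1.27, a scale on which replicate 3 had more alpha than beta. Replicate 1 was lowest and replicate 3 highest on both scales, and by coding length (0.494, 0.543 and 0.648). The balance of alpha to beta therefore could not be fixed from these counts, while its order across libraries was the same for the 3 kinds of length.

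Differences between libraries were read against all genes. In a chi-square test of the 3 counts against the scaled library sizes, with Benjamini-Hochberg adjustment at 0.05 over all 17115 genes, 7 of the 7 members tested differed beyond counting noise, as did 81.5% of all genes. This test compares libraries and not conditions. Of the 7 members, 5 were lowest in replicate 1 and highest in replicate 3 (*Hba-x*, *Hba-a1*, *Hba-a2*, *Hbb-y* and *Hbb-bt*), an order that 33.7% of all genes had. In all, 6 of 7 members were lowest in replicate 1, as were 39.3% of all genes. At least 2-fold between the highest and the lowest library was reached by 5 of 7 members and by 34.8% of all genes. Relative to the mean of the other 2 libraries, on log2 CPM, 4 of 7 members were below -1 in replicate 1 (6.69% of all genes; 3 of 7 members with total counts as library sizes) and *Hbb-bs* alone was above 1 there (5.57%). In replicate 3, 3 of 7 members were above 1 (12.6%). These shares are over genes of every length. Of 263 other protein-coding genes of 500 to 1000 exonic bp, 69 were below -1 in replicate 1 and 127 were above 1 in replicate 3.

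Gene length moved with these ratios. The median log2 ratio over the 7 members was -1.05 in replicate 1, 0.12 in replicate 2 and 0.78 in replicate 3. Over all genes it was 0.01, 0.03 and -0.03. Over the 263 other protein-coding genes with 500 to 1000 exonic bp, a range that holds the members, it was -0.72, -0.24 and 0.98. Of these 263 genes, 234 were below the other libraries in replicate 1, with 69 of them below -1, and 127 were above 1 in replicate 3. In replicate 3 the globin median was thus no higher than that of other genes of its length, whereas in replicate 2 it stood above them. With a fitted curve for exonic length and GC content subtracted, the members' median became -0.54 in replicate 1, 0.30 in replicate 2 and 0.21 in replicate 3. *Hbb-y* was then at -0.62, 0.41 and 0.21, *Hba-x* at -0.54, 0.57 and -0.03, and *Hba-a1* at -0.73, 0.30 and 0.42. In replicate 1, 6 of 7 members were still below the other libraries, as were 185 of the 263 other protein-coding genes of 500 to 1000 bp, whose median was then -0.19. Of the 5 members lowest in replicate 1 and highest in replicate 3, 2 (*Hba-a1* and *Hba-a2*) kept that order, whereas *Hbb-y*, *Hba-x* and *Hbb-bt* were then highest in replicate 2, as *Hbb-bh1* was before and after. Members above the other libraries in replicate 3 went from 7 of 7 to 4 of 7, and the 263 genes of like length from 238 to 189, with a median of 0.27 left beside the members' 0.21. Over all genes this share went from 48.7% to 50.9%. *Hbb-bs* remained at -2.67 in replicate 2.

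**Figure D3:**
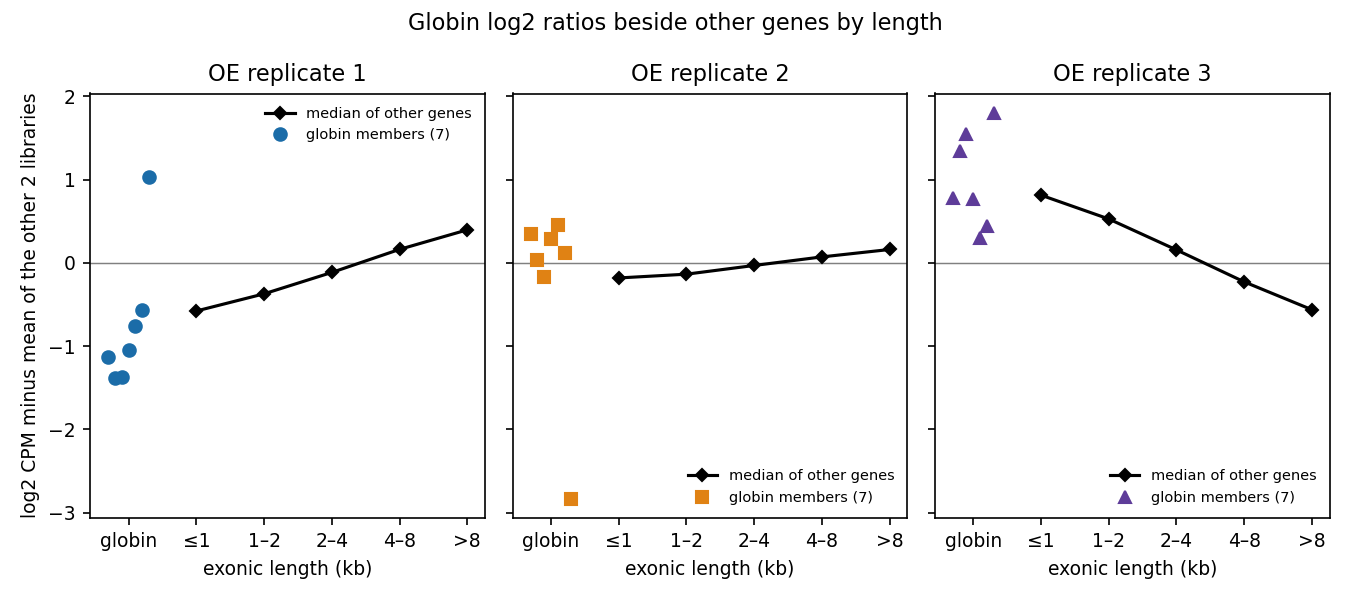
Log2 difference in CPM between 1 library and the average of the rest, for the 7 globin members with enough counts (coloured points, each panel 1 library) beside the median of all other genes by exonic length in kb (black). In replicate 3 the globin points, from 0.30 to 1.80, surround the median of 0.81 of other genes of up to 1 kb, and in replicate 1 all members but *Hbb-bs* lie near or below the median of -0.58 of such genes.

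As counted, red cell membrane genes, which are longer than the globin genes (1594 to 13527 exonic bp), did not show the globin order. Band 3 (*Slc4a1*), the anion exchanger of the red cell membrane, was at 64.1, 94.3 and 28.7 CPM in replicates 1, 2 and 3. Of 14 membrane genes, 14 were highest in replicate 2 (17.2% of all genes) and 12 were lowest in replicate 3 (45.6% of all genes). Their median log2 ratio was 0.00 in replicate 1, 0.98 in replicate 2, where 6 of 14 were above 1 (2.08% of all genes), and -0.99 in replicate 3, where 7 of 14 were below -1 (10% of all genes). With the length and GC trend removed the medians were 0.00, 0.97 and -0.83, with 13 of 14 lower in replicate 3. The globin medians were then -0.54, 0.30 and 0.21. On that scale 6 of 7 globin members were above the other libraries in replicate 2, as 14 of 14 membrane genes were. In replicate 3, 4 of 7 globin members were above the others.

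Most transcription factors that switch on red cell genes were also highest in replicate 2. *Gata1* was at 3.47, 5.70 and 2.65 CPM, *Klf1*, which acts at the CACCC letters, at 6.97, 11.9 and 7.30, and *Tal1* at 10.6, 18.1 and 9.05. Of 8 genes in this list, 6 were highest in replicate 2 (17.2% of all genes). There 7 were higher than the mean of the other libraries (53.1% of all genes). The other two were highest in replicate 3, namely *Nfe2*, a factor of red cells and megakaryocytes (2.80, 5.59 and 6.37 CPM), and *Ldb1*, a cofactor present in many cell types (336, 387 and 619 CPM). Regulators linked to the switch from embryonic to adult globin were present but are not particular to red cells. *Bcl11a*, a repressor of embryonic globin genes that neural tissue also uses, was at 19.5, 31.9 and 47.6 CPM, *Sox6* at 16.2, 10.1 and 8.87, and *Myb* at 3.47, 3.93 and 4.80. The list of 5 had 4 genes beyond counting noise, against 81.5% of all genes, and *Zbtb7a* (20.3, 18.2 and 19.5 CPM) was not among them.

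Heme synthesis genes were mixed. *Alas2*, the red cell form of the first enzyme of the pathway, was at 24.8, 40.1 and 28.6 CPM and peaked in replicate 2. *Alad*, the next enzyme, was at 45.8, 64.3 and 106 CPM, and *Urod* at 66.2, 81.4 and 112 CPM, and both were lowest in replicate 1 and highest in replicate 3, as 5 globin genes were. *Cpox* was at 56.8, 52.5 and 10.3 CPM and *Fech*, which inserts iron into heme, at 41.2, 51.0 and 23.5. Of the 8 enzymes, 6 were lowest in replicate 1 (39.3% of all genes). Of these 6, 4 were highest in replicate 3, an order that 33.7% of all genes had. Most of the 8 enzymes serve heme synthesis in every cell. Of 11 matched genes for iron uptake, heme transport and red cell enzymes, 6 were highest in replicate 2 (17.2% of all genes). In replicate 3, 8 were lowest (45.6% of all genes). *Hemgn* (11.1, 15.3 and 5.50 CPM) and *Car2* (31.2, 50.5 and 20.5) were in both groups. *Ahsp*, the alpha globin chaperone, was not matched by name.

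Set side by side, the 41 matched genes of the 4 red cell lists stood at a median log2 ratio of -0.08 in replicate 1, which turned to 0.036 with total counts as library sizes, 0.59 in replicate 2 and -0.56 in replicate 3. Of these 41 genes, 29 were highest in replicate 2 (17.2% of all genes) and 25 were lowest in replicate 3 (45.6% of all genes). Globin counts per count of *Alas2* were 86.5, 98.8 and 173 in replicates 1, 2 and 3, and per count of *Klf1* they were 308, 334 and 679. Per count of *Slc4a1* they were 33.4, 42.0 and 173. With *Gata1* and *Hemgn* also used as denominators, replicate 3 was 1.75 times (*Alas2*) to 4.11 times (*Slc4a1*) replicate 2. The denominators are longer than the globin genes (558 to 938 exonic bp), with 1530 bp for *Klf1*, 2403 for *Alas2* and 4891 for *Slc4a1*, and these ratios were not adjusted for length.

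**Figure D4:**
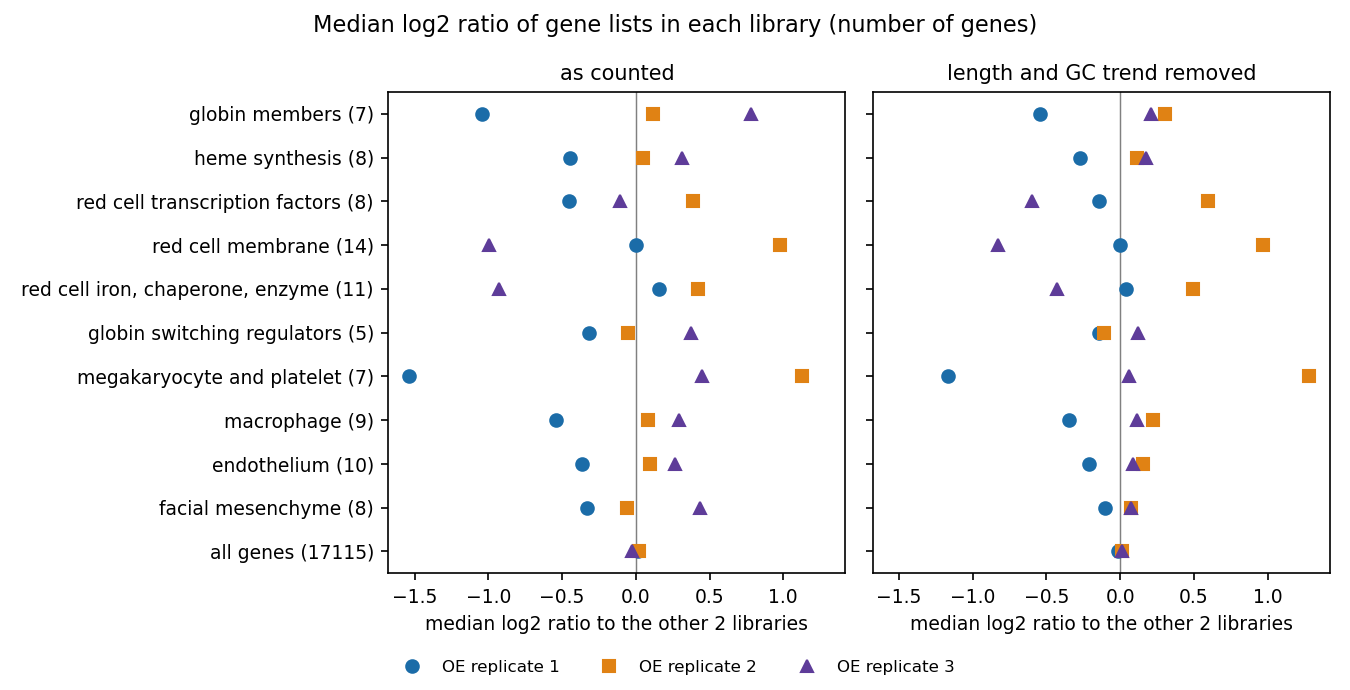
Median log2 ratio of each gene list in 1 library to the mean of the other 2, for OE replicates 1, 2 and 3, as counted (left) and with a trend on exonic length and GC content removed (right). The globin median in replicate 3 falls from 0.78 to 0.21 with the trend removed, while red cell membrane genes stay near 0.98 in replicate 2.

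Markers of the other cells in blood vessels were given the same look. Over 10 endothelial markers, with *Pecam1* and *Cdh5* among them, the summed level was 401, 467 and 455 CPM, 1.16-fold between the highest and the lowest library against 2.31-fold for summed globin. The markers did not move together. Of the 10, 7 were lowest in replicate 1 (39.3% of all genes). Of these, 6 were highest in replicate 3, such as *Egfl7* (29.2, 44.1 and 83.2 CPM), the order of most globin genes and of 33.7% of all genes. The other 3 were lowest in replicate 3, such as *Kdr* (77.6, 84.1 and 37.3). Over 8 megakaryocyte and platelet markers the summed level was 12.5, 38.2 and 30.4 CPM. Of these, 7 of the 7 with enough counts were lowest in replicate 1 (39.3% of all genes). *Pf4* (2.72, 7.33 and 8.71 CPM) and *Itga2b* (7.51, 21.6 and 15.4) were the most abundant of these, and *Gp1bb* had 0 counts in every library. Over 9 macrophage markers the sum was 33.2, 41.2 and 53.5 CPM. Of these, 6 were lowest in replicate 1 (39.3% of all genes), whereas *Ptprc* (2.49, 1.69 and 0.903 CPM) and *Mrc1* (4.90, 2.08 and 1.67) were highest there. Replicate 1 had the lowest sum for globin, platelet and macrophage genes, and also for endothelium, heme synthesis, the switching regulators and the red cell transcription factors. Facial mesenchyme was lowest there too, by 1.10-fold. The sums of red cell membrane genes (214, 298 and 135 CPM) and of iron, chaperone and enzyme genes (381, 433 and 284) were lowest in replicate 3. Replicate 1 had the highest sum of neuron markers. The part of the neuronal RNA in the globin levels was not tested.

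Globin relatives outside the 8 members were low, and the highest was *Cygb*. *Cygb* (cytoglobin), which fibroblast-like cells use, was at 9.15, 8.46 and 9.80 CPM, and its libraries did not differ beyond counting noise. *Ngb* (neuroglobin) was at 0.337, 0.702 and 0.929 CPM and *Hbq1b*, a theta globin of the alpha cluster, at 0.544, 1.21 and 0.743. *Hbq1a* had 0, 3 and 1 counts, *Adgb* (androglobin) 3, 6 and 0, and *Mb* (myoglobin) 7, 4 and 3. In the beta cluster *Hbb-bh0* had 15, 6 and 3 counts, and *Hbb-bh3* had 0 in every library. Of these 8 relatives, 3 averaged 10 or more counts.

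The 10 genes most like globin in pattern stood on no red cell list, but only 38 of the 11853 genes ranked did. So small a part makes a count of 0 among 10 uninformative. Likeness was the Euclidean distance between a gene's centred log2 CPM over the 3 libraries and the mean profile of the 7 members, each averaging 100 or more counts, which was -0.50, -0.17 and 0.67 in replicates 1, 2 and 3. The 10 nearest of 11853 genes were *Naxd*, *Rps16-ps2*, *Zdhhc1*, *Ppie*, *Eif3i*, *Tmem179b*, *Bad*, *Chchd1*, *Tbc1d17* and *Psmb6*, at distances of 0.00699 to 0.0177. With 3 libraries the profile has little room to tell genes apart. The members themselves lay at 0.438 (*Hbb-y*) to 2.15 (*Hbb-bs*) from it. *Hbb-bs* sets the low value in replicate 2. Without it, a choice made after the values were seen, the profile of the other 6 members was -0.69, 0.12 and 0.58, and 0 of the 10 genes above stayed among the 10 nearest. Those were *Nkd1*, *Msh5*, *Rnf208*, *Tle2*, *Myo1a*, *Rps26-ps1*, *Rasgrp2*, *Rnd2*, *Bcl11a* and *Arhgdig*, of which 0 stood on the 4 red cell lists and *Bcl11a* on that of the switching regulators, and the 6 members lay at 0.0974 to 0.555 from that profile. With all 7 members, the median distance was 1.26 for the 38 red cell genes ranked and 0.939 for all genes, and the nearest red cell gene was *Ppox*, a heme enzyme, at 0.0392. Without *Hbb-bs* these medians were 1.18 and 0.990, and *Nfe2*, a red cell transcription factor, was the nearest at 0.194. All distances keep the trend on length and GC. The members have up to 938 exonic bp, and the shortest of the red cell genes, *Klf1*, has 1530. The part of gene length in these distances was not tested.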

How the data were processed

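RNA of E10.5 maxillary processes from 3 *wnt1cre; Rosa26Dlx2/-* samples was sequenced as 150 bp pairs after poly-T selection. The authors mapped reads to mm10 with STAR 2.7.3a and deposited raw gene counts, with HTSeq 0.12.4 named in the submitters' processing notes. The annotation release and strand setting are not given in the sources used here. Rows that name no gene held 14.2% to 16.4% of counted reads and were left out. Of 55401 identifiers, 55141 matched GENCODE M21 (GRCm38), which gave names, positions and exonic lengths.

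CPM used TMM factors from edgeR 4.0.16. Log ratios used a prior count of 2. The trend on exonic length and longest-transcript GC was fitted with mgcv 1.9.3. Counting noise was tested by chi-square over genes averaging 10 or more counts, and steps were tested on simulated data. There is 1 group, so p-values between conditions, and any pairing, do not arise. Alternatives were DESeq2 1.42.0 size factors, total counts, TMM without the members, other filters, lengths and constants, and leaving out each replicate. Members, lists and tests were chosen with earlier results of these data known. The genes named were the 8 members, genes of the written lists, of which some are not reported here by name, and the 10 nearest in pattern. Scripts ran in Python 3.11.15 (pandas 2.3.3, scipy 1.17.1, numpy 2.4.6) and R 4.3.3.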

Additional observations from a re-analysis of the deposited data

How the results depend on the processing

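Of 122 alternative values over 21 results, 115 moved by less than 1 SD, taken between replicates for levels, shares and ratios and over the genes of the list for log2 ratios, or for counts of genes stayed within 1.5 times. At a given scaling, leaving out 1 of 3 replicates cannot move a mean by 1 SD between replicates. For levels, shares and ratios those alternatives were therefore bound to stay within 1 SD, and they do not measure stability. The alpha to beta ratio moved from 0.462 per exonic kb to 0.562 per coding kb and 1.02 per window found in no other globin gene, where fewer bases of the adult genes are counted. On that last scale, chosen for shares after seeing the data, the embryonic share moved from 73.7% to 34.9% for alpha and from 98.1% to 95.9% for beta. The median globin log2 ratio in replicate 3 moved from 0.78 to 0.21 with the trend on length and GC removed. The red cell median in replicate 1 turned from -0.08 to 0.036 with total counts, which shift the median of all genes to 0.13 there, 0.04 in replicate 2 and -0.16 in replicate 3. No member changed direction under the other scalings, but with the trend removed *Hba-x* (-0.03), *Hbb-bh1* (-0.16) and *Hbb-bt* (-0.19) turned negative in replicate 3 and *Hba-a2* (0.10) positive in replicate 2. With total counts, 3 in place of 4 members were below -1 in replicate 1. Leaving out each replicate gave a summed globin level of 3150 to 4341 CPM, an embryonic share of 72.2% to 76.3% for alpha and 97.5% to 98.6% for beta, an *Hbb-bh1* share of 25.6% to 28.9%, an alpha to beta ratio of 0.428 to 0.489, 7 to 8 members and 8245 to 13429 genes beyond counting noise, the lowest without replicate 3. Without *Hbb-bs*, an alternative chosen after seeing the data, the globin medians moved by less than the spread over members. Leaving out replicates moved *Hbb-bs* from 16.6 to 33.5 CPM, *Hba-a2* from 5.94 to 11.5, *Hba-a1* from 279.9 to 492 and *Hbb-bh2*, near the counting limit, from 0.104 to 0.313 CPM. With 3 libraries of 1 genotype no value bears on a difference from wild type.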
